A study of Triticum aestivum with 6 samples.

Results

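Late embryogenesis abundant (LEA) proteins other than dehydrins were followed in wheat roots at the level of their transcripts. The genes were found by protein name: the first full name that the deposited table pairs with a gene had to contain "late embryogenesis abundant" or begin with "LEA" or "ABA-inducible protein", and not with "Dehydrin". This gave 68 of 83219 genes under 14 protein names, which are matches to proteins of wheat, barley, rice, Arabidopsis and cotton and not curated wheat names. The material was the root of wild-type wheat (Triticum aestivum) JW1 seedlings. In 2N+ABA (3 libraries) the seedlings spent 3 h with 2 mM potassium nitrate and 5 µM abscisic acid (ABA). In 0N+ABA (3 libraries) potassium chloride at 2 mM stood in for the nitrate, also with 5 µM ABA for 3 h. Before that, both groups had lost the endosperm after 3 days of germination, grown for 3 days with 2 mM nitrate and been held for 2 days without nitrogen. Both groups thus carried ABA, so a difference between them concerns nitrate against chloride under ABA and not the effect of ABA itself.

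LEA proteins are mostly hydrophilic and disordered, and they were first described as proteins that build up in seeds as these dry. In vegetative tissue many of them are induced by ABA, drought, salt or cold, and they are held to shield membranes and other proteins during water loss. They fall into unrelated families. Group 3 proteins, such as barley HVA1 (named ABA-inducible protein PHV A1) and rice LEA 19, repeat a short motif that can fold into a helix on drying. Group 4 holds the Arabidopsis proteins LEA 6, LEA 18 and LEA 46, the seed maturation proteins include cotton D-34 and Arabidopsis LEA 31, and group 1 is the Em type of the cereal embryo, here barley B19.1A. Cotton Lea14-A belongs to an atypical family with a folded domain. Rice LEA 1, LEA 14 and LEA 17 and Arabidopsis At5g17165 are given by name alone.

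The libraries held between 16907317 and 17735564 estimated counts, and the LEA genes took from 0.675% to 1.13% of them. Whether replicates were grown as separate cultures is not stated, and the p-values reflect only library-to-library spread, which may be technical. One label names leaf, while the tissue label names root. Root markers (cortical cell-delineating, Casparian strip membrane, root cap and root-specific lectin genes, 3 of 64 at 0 in all libraries) summed to between 13054 and 13986 TPM in 2N+ABA and between 11896 and 13995 TPM in 0N+ABA. TPM, the deposited transcript level, allows for gene length and library size. Leaf markers (photosynthesis genes, 21 of them at 0 in all libraries) summed to between 134 and 287 TPM in 2N+ABA and between 186 and 287 TPM in 0N+ABA. Seed markers (storage protein and oleosin genes, 8 of 95 at 0 in all libraries) summed to between 61.7 and 73.9 TPM in 2N+ABA and between 58.7 and 69.4 TPM in 0N+ABA. One library stood apart from its group: on the first principal component of all genes tested, with 42.1% of the variance, 0N+ABA replicate 2 lay at 1.28, against 63.8 and 74.1 for the other 0N+ABA libraries and -59.9 to -38.8 for 2N+ABA. Results are therefore also given without it.

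Most LEA genes were higher with nitrate, the majority by less than 2-fold. Of the 68, 54 passed the filter on low counts and were tested. The other 14 had at most 55 counts over all 6 libraries. By edgeR's quasi-likelihood test at an adjusted p under 0.05, 8 of the 54 rose (14.8%), where 1.67% of all 53862 genes tested rose. None fell by edgeR, DESeq2 or limma-voom, where 0.579% of all genes fell by edgeR. At an unadjusted p under 0.05, 32 were higher and 2 lower, where 8.62% of all genes were higher and 7.77% lower. The log2 fold change was positive in 41 of the 54, against 47.7% of all genes, and its median was 0.54, against -0.02 over all genes. It ran from -0.55 to 1.40, and 7 genes lay above 1. The groups did not overlap in CPM (counts scaled by library size) in 26 genes that were higher and 1 that was lower with nitrate, against 11.3% and 10.8% of all genes. In bulk tissue, fewer cells that express a gene and less RNA per cell cannot be told apart.

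**Figure D1:**
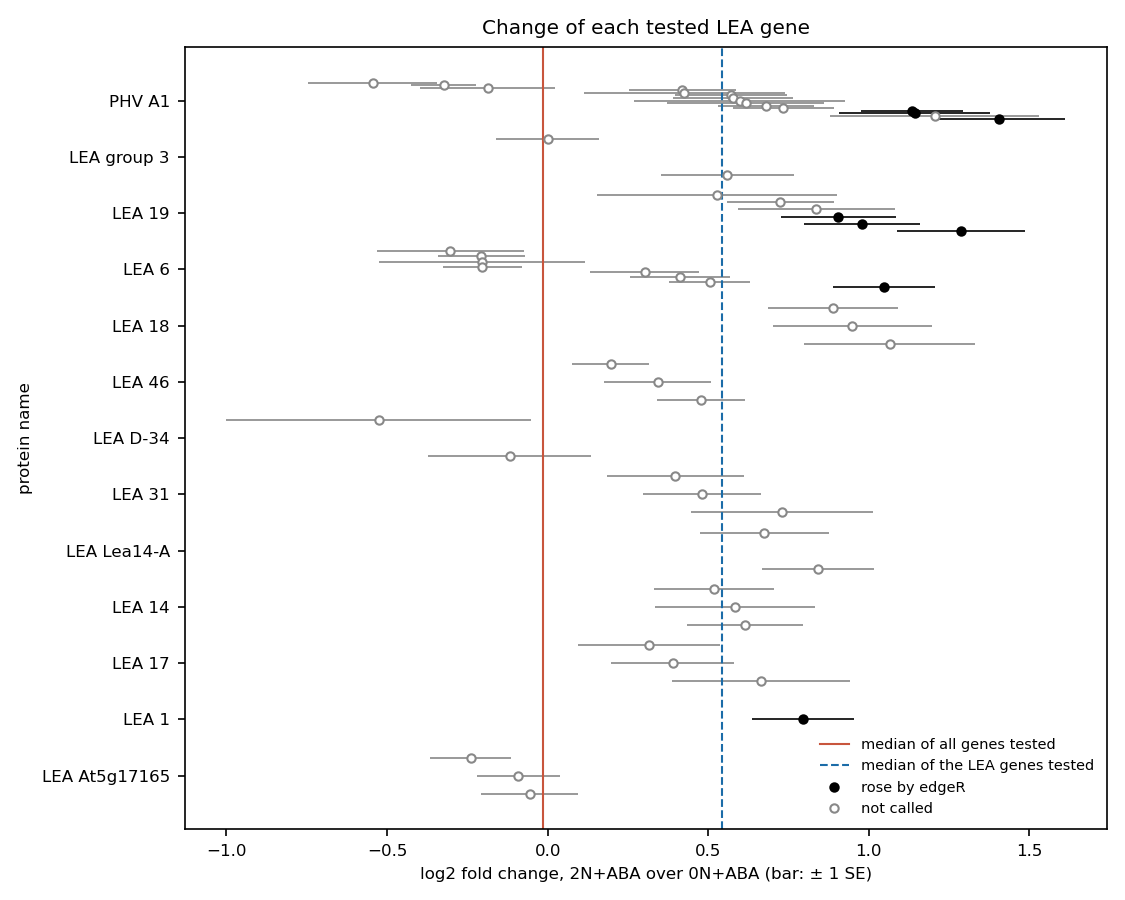
Log2 fold change of each of the 54 tested LEA genes (2N+ABA over 0N+ABA, bars ± 1 SE), by protein name, with filled points for the 8 that rose. Most points lie right of the median of all genes (-0.02), while all 3 At5g17165 genes, both D-34 genes, 4 of the LEA 6 genes and 3 of the PHV A1 genes lie left of it.

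The summed level of all 68 genes was 15816, 18550 and 16865 TPM in 2N+ABA replicates 1, 2 and 3, and 11012, 14344 and 11770 TPM in the 0N+ABA replicates. The sums averaged 17077 ± 1379 TPM in 2N+ABA and 12376 ± 1746 TPM in 0N+ABA (SD, n = 3 each) and did not overlap, with 0N+ABA replicate 2 closest to the nitrate libraries. In 39 of the 54 tested genes that library was the highest of its group, against 34.1% of all genes. The median position of the LEA genes relative to each gene's mean was 0.12, 0.49 and 0.26 on the log2 CPM scale in 2N+ABA replicates 1, 2 and 3. In 0N+ABA replicates 1, 2 and 3 it was -0.46, -0.02 and -0.41. Casparian strip membrane proteins, which mark the endodermis, were also highest within 0N+ABA in replicate 2, but their groups overlapped. Their 7 genes, of which 1 had no count, summed to 158, 191 and 188 TPM in 2N+ABA and to 117, 198 and 118 TPM in 0N+ABA. Of 6 tested, 0 rose or fell by edgeR (0 higher and 0 lower also at an unadjusted p under 0.05). Without 0N+ABA replicate 2, 5 rose, where 5.19% of all genes rose. The whole list of 64 root markers was also highest within 0N+ABA in replicate 2 (11896, 13995 and 12783 TPM), and its groups overlapped too. Of its 44 tested genes, 33 had a positive and 11 a negative log2 fold change. By edgeR 0 of these rose or fell (6 higher, 6 lower at an unadjusted p under 0.05). Without 0N+ABA replicate 2, 11 rose and 1 fell, where 5.19% of all genes rose and 3.19% fell. The part of either set in the LEA values was not tested.

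Which library was left out set how many LEA genes were called. Without 0N+ABA replicate 2, 33 of 54 rose (61.1%), where 5.19% of all genes rose, and 0 fell by edgeR (4 at an unadjusted p under 0.05), where 3.19% of all genes fell. The median log2 fold change was then 0.78, and the 8 genes above were among the 33. Without 0N+ABA replicates 1 or 3, 0 rose by edgeR (24 and 22 of 55 were higher at an unadjusted p under 0.05), where 0.601% and 0.636% of all genes rose. Without 2N+ABA replicates 1, 2 and 3, 2 of 54, 4 of 55 and 4 of 55 rose, where 0.456%, 0.758% and 0.658% of all genes rose. DESeq2 called 19 rises, where 2.82% of all genes rose, and the 8 of edgeR were among them.

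**Figure D2:**
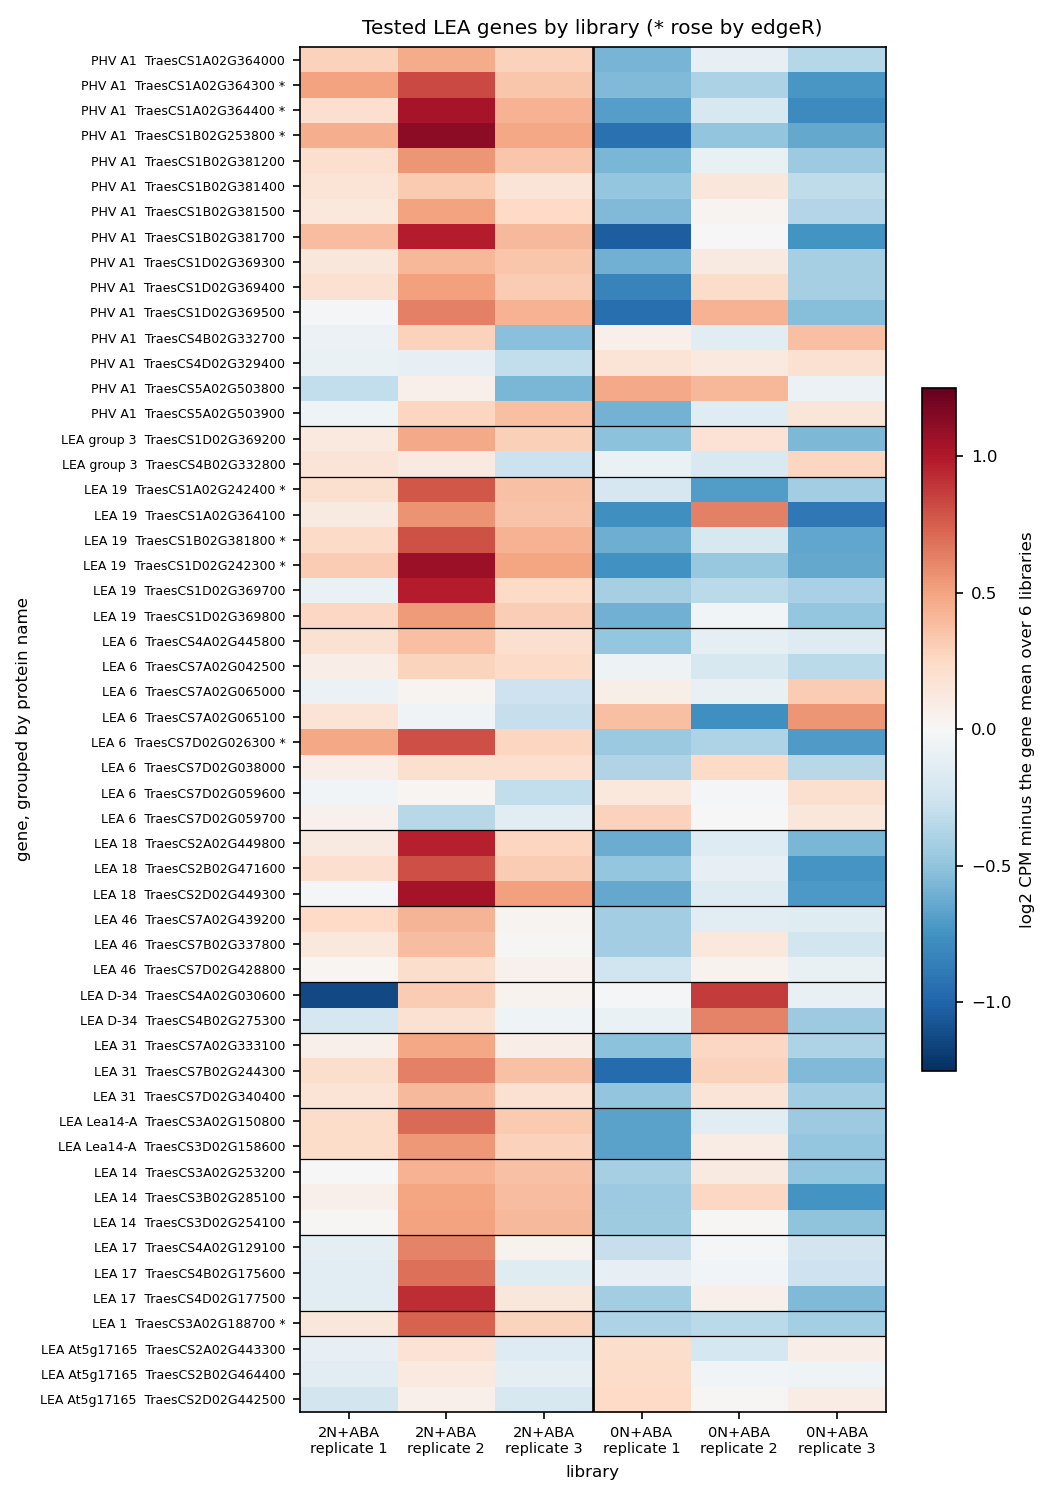
Level of each tested LEA gene in each library, as log2 CPM minus the gene's mean over the 6 libraries (color), in rows grouped by protein name; the line divides 2N+ABA (left) from 0N+ABA (right). Most rows are red in 2N+ABA, deepest in replicate 2, and blue in 0N+ABA replicates 1 and 3, with paler values in 0N+ABA replicate 2.

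Group 3 was the most abundant family and gave 6 of the 8 rises. Its 24 genes summed to 9278 ± 658 TPM in 2N+ABA and 6128 ± 1239 TPM in 0N+ABA (SD, n = 3 each). Of 23 tested, 6 rose and 0 fell by edgeR (2 were lower at an unadjusted p under 0.05), where 1.67% of all genes rose. The median log2 fold change was 0.62. Without 0N+ABA replicate 2, 17 rose, where 5.19% of all genes rose. The PHV A1 gene TraesCS1A02G364000 had the highest level of all 68 and ranked 8 by mean TPM among all 83219 genes. It had 2255, 2389 and 2271 TPM in 2N+ABA and 1267, 1737 and 1479 TPM in 0N+ABA. The groups did not overlap, but the log2 fold change of 0.68 (SE 0.15) did not pass edgeR's test (adjusted p = 0.0592, and 0.00135 to 0.195 over the alternatives, the lowest from DESeq2).

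The group 3 genes lie mainly in gene clusters. The gene IDs give the chromosome and number genes along it, and 15 of the 24 fall in narrow number ranges on chromosomes 1A, 1B and 1D. Such neighbours, and the copies on the A, B and D chromosomes of hexaploid wheat, can be near-identical, so the division of reads among them is uncertain. All 15 had a positive log2 fold change, from 0.42 to 1.20, and 3 of them rose, where 1.67% of all genes rose. Without 0N+ABA replicate 2, 14 of the 15 rose, where 5.19% of all genes rose. Summed over the cluster, the 4 genes on 1A had 2340, 2513 and 2365 TPM in 2N+ABA and 1312, 1807 and 1520 TPM in 0N+ABA. The 5 on 1B had 2641, 3166 and 2914 TPM in 2N+ABA and 1619, 2284 and 1763 TPM in 0N+ABA. The 6 on 1D had 3296, 3824 and 3659 TPM in 2N+ABA and 1899, 3154 and 2174 TPM in 0N+ABA. In each cluster the groups did not overlap, and 0N+ABA replicate 2 was the highest of its group.

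The 3 cluster genes that rose included the LEA 19 gene TraesCS1B02G381800. It had 367, 508 and 425 TPM in 2N+ABA and 210, 274 and 203 TPM in 0N+ABA (log2 fold change 0.98, SE 0.18, adjusted p = 0.0338 by edgeR). The others were PHV A1 genes on 1A of lower level. TraesCS1A02G364300 had 22.2, 26.1 and 20.01 TPM in 2N+ABA and 10.8, 11.9 and 9.60 TPM in 0N+ABA (log2 fold change 1.13, SE 0.16, adjusted p = 0.0114 by edgeR). TraesCS1A02G364400 had 47.3, 78.8 and 55.9 TPM in 2N+ABA and 26.02, 35.8 and 24.1 TPM in 0N+ABA (log2 fold change 1.14, SE 0.24, adjusted p = 0.0490 by edgeR, and 0.0514 by limma-voom). In none of these 3 did the groups overlap.

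Abundant neighbours in the same clusters did not pass the test. TraesCS1B02G381200 (PHV A1) averaged 1326 ± 108 TPM in 2N+ABA and 832 ± 138 TPM in 0N+ABA, TraesCS1D02G369300 (PHV A1) 1153 ± 89.6 TPM in 2N+ABA and 803 ± 204 TPM in 0N+ABA, and TraesCS1D02G369800 (LEA 19) 1122 ± 70.3 TPM in 2N+ABA and 706 ± 146 TPM in 0N+ABA (SD, n = 3 each). Their log2 fold changes were 0.73, 0.58 and 0.72 (edgeR adjusted p = 0.0552, 0.173 and 0.0695). All 3 passed without 0N+ABA replicate 2 (edgeR adjusted p = 0.00538, 0.00644 and 0.00371), and over all alternatives the adjusted p ran from 0.00143 to 0.172, 0.00644 to 0.383 and 0.00364 to 0.202. The LEA 19 gene TraesCS1A02G364100 varied widely within 0N+ABA. It had 15.1, 19.4 and 18.1 TPM in 2N+ABA and 8.28, 21.9 and 7.61 TPM in 0N+ABA, so that 0N+ABA replicate 2 lay above all nitrate libraries.

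A further 3 group 3 genes lay on the same chromosomes outside the clusters, 1 each on 1A, 1B and 1D, and all 3 rose. TraesCS1D02G242300 (LEA 19) had 78.2, 125 and 89.1 TPM in 2N+ABA and 38.0, 45.7 and 41.4 TPM in 0N+ABA (log2 fold change 1.29, SE 0.20, adjusted p = 0.0172 by edgeR). TraesCS1A02G242400 (LEA 19) had 74.0, 104 and 83.5 TPM in 2N+ABA and 57.1, 40.1 and 48.7 TPM in 0N+ABA (log2 fold change 0.91, SE 0.18, adjusted p = 0.0441 by edgeR). TraesCS1B02G253800 (PHV A1) had the largest log2 fold change of all 54, 1.40 (SE 0.21, adjusted p = 0.0147 by edgeR), with 28.1, 42.1 and 28.9 TPM in 2N+ABA and 10.9, 14.7 and 13.4 TPM in 0N+ABA. Summed, these 3 genes had 180, 271 and 202 TPM in 2N+ABA and 106, 100 and 104 TPM in 0N+ABA. The 0N+ABA sums lay close together, replicate 2 included, which was not so for the cluster sums. The single genes differed: within 0N+ABA, replicate 2 was the lowest in TraesCS1A02G242400 and the highest in TraesCS1D02G242300 and TraesCS1B02G253800. The cluster gene TraesCS1D02G369700 also had close 0N+ABA values (22.86, 23.75 and 23.02 TPM). The difference from the clusters was not tested.

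The remaining 6 group 3 genes, on 4B, 4D and 5A, did not follow. Of 5 tested, 0 rose or fell by edgeR (0 higher, 2 lower at an unadjusted p under 0.05), and the median log2 fold change was -0.19, against 0.73 for the 18 genes on 1A, 1B and 1D. This division by chromosome was made after the values were seen, and the difference was not tested. TraesCS5A02G503800 (PHV A1) had 15.8, 19.3 and 13.3 TPM in 2N+ABA and 28.01, 26.4 and 19.09 TPM in 0N+ABA, the lowest log2 fold change of all 54 (-0.55, SE 0.20, edgeR adjusted p = 0.223). The groups overlapped. TraesCS4D02G329400 (PHV A1) had 36.3, 33.9 and 31.4 TPM in 2N+ABA and 44.6, 42.5 and 45.0 TPM in 0N+ABA (log2 fold change -0.32, SE 0.10, edgeR adjusted p = 0.159). It was the 1 gene of the 54 that was lower with nitrate in CPM without overlap. TraesCS4B02G332800, named wheat LEA group 3, averaged 74.7 ± 10.9 TPM in 2N+ABA and 77.8 ± 13.9 TPM in 0N+ABA (SD, n = 3 each).

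**Figure D3:**
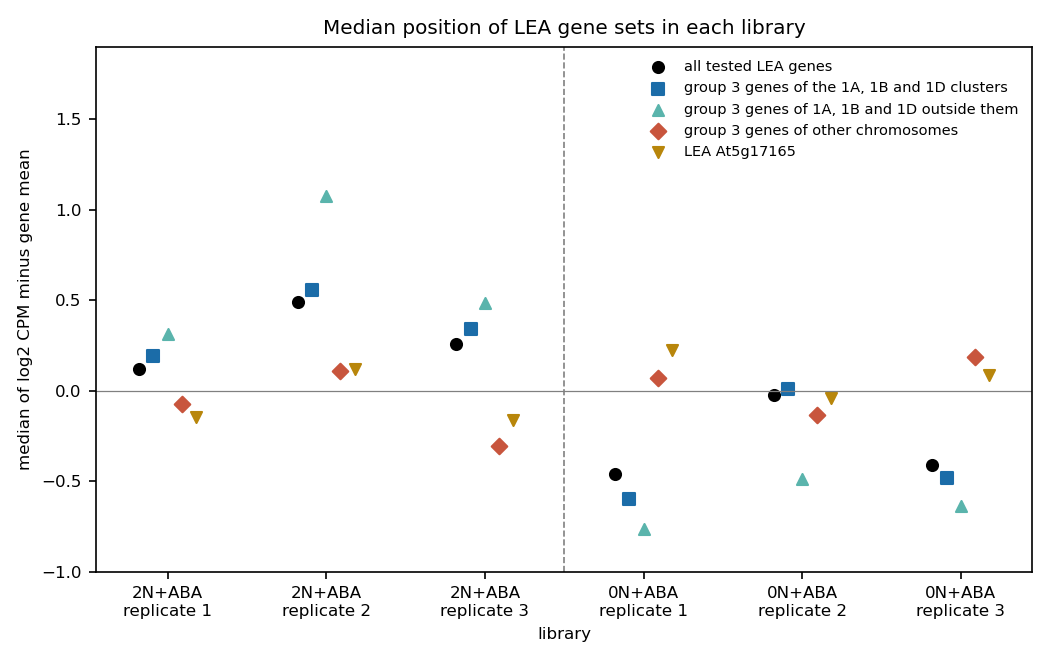
Median over gene sets of log2 CPM minus each gene's mean, per library, for all 54 tested LEA genes, 3 sets of group 3 genes and the At5g17165 genes. Group 3 genes of the clusters lie at 0.19 to 0.56 in 2N+ABA and at -0.60, 0.01 and -0.48 in 0N+ABA; the 3 outside them stay at -0.76 to -0.49 in all 0N+ABA libraries.

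**Figure D4:**
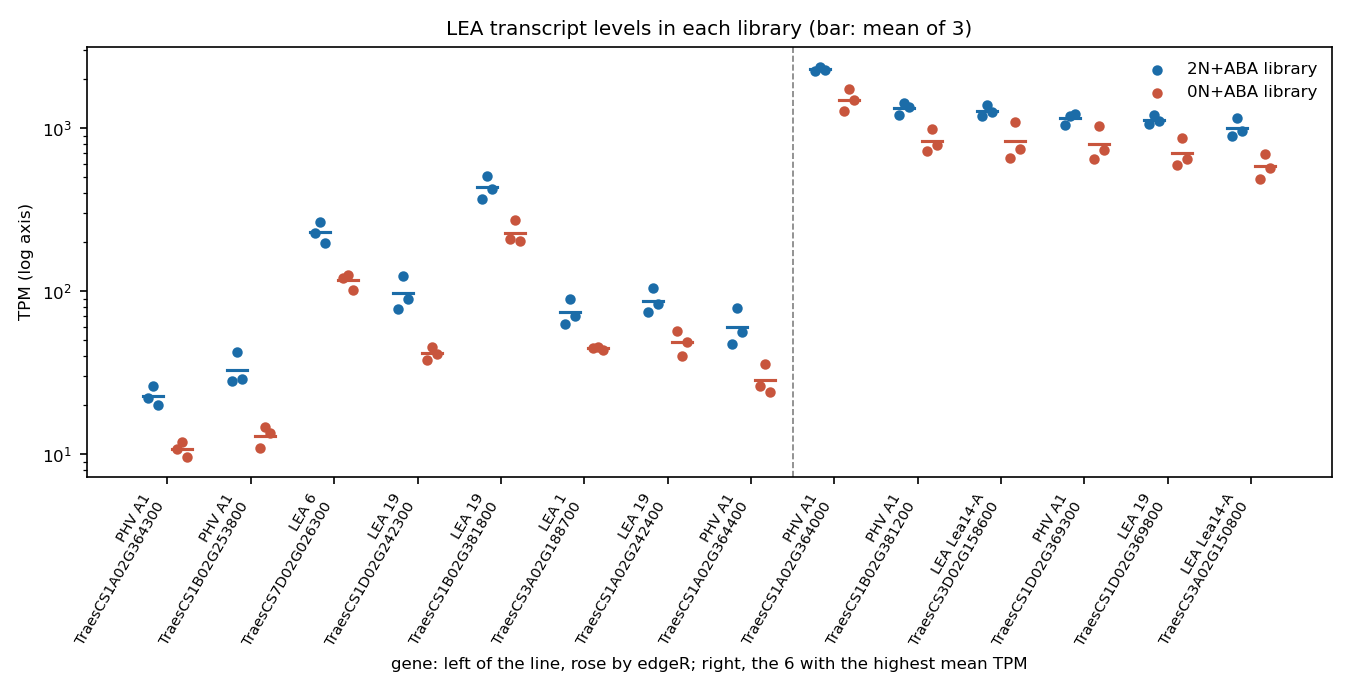
TPM on a log axis in each library for the 8 LEA genes that rose and the 6 with the highest mean TPM (bars, means of 3). The 8 lie between 9.60 and 508 TPM and their groups do not overlap. The 6 most abundant lie between 486 and 2389 TPM. In each of these 6, replicate 2 is the highest 0N+ABA point and lies below every 2N+ABA point, at a distance that varies by gene.

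Group 4 genes, whose Arabidopsis counterparts are induced by water deficit, moved unevenly. Of 14 tested, 1 rose and 0 fell by edgeR, where 1.67% of all genes rose (7 were higher and 0 lower at an unadjusted p under 0.05). The median log2 fold change was 0.38. Without 0N+ABA replicate 2, 7 rose, where 5.19% of all genes rose. The gene that rose was the LEA 6 gene TraesCS7D02G026300. It had 228, 266 and 198 TPM in 2N+ABA and 121, 126 and 102 TPM in 0N+ABA (log2 fold change 1.05, SE 0.16, adjusted p = 0.0161 by edgeR), and the groups did not overlap.

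The LEA 6 genes, TraesCS7D02G026300 included, were divided after the values were seen, and the division follows the sign of the log2 fold change. Of the 11, 8 were tested. The 4 that neighbour each other in pairs on 7A and 7D (TraesCS7A02G065000, TraesCS7A02G065100, TraesCS7D02G059600 and TraesCS7D02G059700) all had negative log2 fold changes, from -0.30 to -0.20. Summed, they had 439, 394 and 363 TPM in 2N+ABA and 499, 384 and 567 TPM in 0N+ABA, with the groups overlapping. The other 4 tested had log2 fold changes of 0.30 to 1.05, and with the 3 untested ones summed to 398, 443 and 380 TPM in 2N+ABA and to 241, 294 and 238 TPM in 0N+ABA, without overlap. Position alone does not separate the sets: the untested TraesCS7A02G065300, summed here with the second set, also lies by ID beside the 7A pair. The difference between these sets was not tested.

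None of the 3 LEA 18 genes passed the threshold by edgeR, though all 3 were higher at an unadjusted p under 0.05. Their log2 fold changes were 0.95, 0.89 and 1.06 on 2A, 2B and 2D, and the groups did not overlap in any. The most abundant, TraesCS2B02G471600, had 234, 324 and 255 TPM in 2N+ABA and 145, 188 and 126 TPM in 0N+ABA (log2 fold change 0.89, SE 0.20). It missed the threshold by edgeR (adjusted p = 0.0684, and 0.00398 to 0.192 over the alternatives) and passed by DESeq2. This gene had 2.09 counts per TPM, against up to 25.0 among the tested LEA genes, so its TPM rest on fewer reads than those of longer genes at the same level. The LEA 46 genes differed less, with log2 fold changes of 0.20 to 0.48. Their most abundant copy, TraesCS7D02G428800, had 737, 791 and 757 TPM in 2N+ABA and 624, 750 and 699 TPM in 0N+ABA (log2 fold change 0.20, SE 0.12, edgeR adjusted p = 0.474).

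Both Lea14-A genes were abundant and higher with nitrate in each library, though neither passed edgeR's test with all libraries. TraesCS3D02G158600 had 1192, 1387 and 1254 TPM in 2N+ABA and 655, 1093 and 746 TPM in 0N+ABA (log2 fold change 0.68, SE 0.20, edgeR adjusted p = 0.140). TraesCS3A02G150800 had 891, 1150 and 963 TPM in 2N+ABA and 486, 691 and 573 TPM in 0N+ABA. Its log2 fold change of 0.84 (SE 0.18) lay beside the threshold (edgeR adjusted p = 0.0505), passed by limma-voom (adjusted p = 0.0490) and ranged from 0.000769 to 0.160 in adjusted p over the alternatives. In both, 0N+ABA replicate 2 was the highest of its group and still below every nitrate library.

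The single gene matched to rice LEA 1, TraesCS3A02G188700, rose. It had 63.0, 90.1 and 70.0 TPM in 2N+ABA and 44.9, 45.6 and 43.5 TPM in 0N+ABA (log2 fold change 0.80, SE 0.16, adjusted p = 0.0439 by edgeR). Its 0N+ABA libraries lay close together, replicate 2 included, and below every 2N+ABA library. The 3 LEA 14 and 3 LEA 17 genes had log2 fold changes of 0.52 to 0.62 and 0.32 to 0.66, and 0 of the 6 rose or fell by edgeR (4 were higher and 0 lower at an unadjusted p under 0.05). The most abundant LEA 14 gene, TraesCS3D02G254100, had 358, 471 and 473 TPM in 2N+ABA and 268, 360 and 255 TPM in 0N+ABA (edgeR adjusted p = 0.135, and 0.0147 without 0N+ABA replicate 2, in a range of 0.0147 to 0.342). The LEA 17 gene TraesCS4D02G177500 had 71.3, 141 and 87.7 TPM in 2N+ABA and 59.7, 83.2 and 54.8 TPM in 0N+ABA (edgeR adjusted p = 0.285), where the groups overlapped.

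The genes matched to At5g17165 were abundant and were not higher with nitrate. Their log2 fold changes were -0.06, -0.09 and -0.24 on 2A, 2B and 2D, and 0 were higher or lower by edgeR even at an unadjusted p under 0.05. TraesCS2D02G442500 had 652, 752 and 673 TPM in 2N+ABA and 934, 782 and 838 TPM in 0N+ABA (SE 0.13, edgeR adjusted p = 0.403). Its 2N+ABA libraries lay below its 0N+ABA libraries in TPM, while in CPM the groups overlapped.

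Most genes for D-34 and B19.1A had few or no counts in these roots. Both genes for the Em-type protein B19.1A were at the limit of detection: TraesCS1A02G224200 had 1 count in 1 library of 2N+ABA and TraesCS1D02G225900 had 0 counts in all 6. A count of 0 allows up to 3 counts in a library, or between 0.169 and 0.183 TMM-scaled CPM over the 6 libraries, for counting error alone. Of 10 D-34 genes, 8 were too low to test and had between 1 and 55 counts over the 6 libraries. Among these, TraesCS5D02G026500 had counts in every 0N+ABA library and none in 2N+ABA, 5 counts in all, so no fold was computed. The D-34 gene with the highest level, TraesCS4B02G275300, had 17.1, 21.3 and 19.3 TPM in 2N+ABA and 19.2, 30.9 and 14.8 TPM in 0N+ABA (log2 fold change -0.12, SE 0.25, edgeR adjusted p = 0.867). Without 0N+ABA replicate 2 its log2 fold change was 0.25 (edgeR adjusted p = 0.396, in a range of 0.396 to 0.983). TraesCS4A02G030600 averaged 0.650 ± 0.327 TPM in 2N+ABA and 0.970 ± 0.425 TPM in 0N+ABA (SD, n = 3 each). The LEA 31 genes, of the same family as D-34, were all tested, and their highest copy was on 7D. TraesCS7D02G340400 had 386, 429 and 395 TPM in 2N+ABA and 252, 388 and 261 TPM in 0N+ABA (log2 fold change 0.48, SE 0.18, edgeR adjusted p = 0.241, and 0.00774 without 0N+ABA replicate 2, in a range of 0.00774 to 0.491).

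For 6 of the protein names there was 1 gene each on the A, B and D chromosomes of the same group, and in each of them 1 copy had the highest share in all 6 libraries. The D copy of LEA 31 took from 73.5% to 77.9% of the TPM of its 3 copies over the 6 libraries, and that of LEA 46 from 71.8% to 76.6%. The B copy of LEA 31 ran from 8.02% to 12.3%. For LEA 14 the A and D copies took 42.8% to 45.4% and 50.1% to 53.1%, and the B copy, TraesCS3B02G285100, 3.36% to 4.56%. LEA 18 differed in that its B copy was the highest, at 46.5% to 53.3%. In LEA 17 and At5g17165 the D copy was the highest, at 43.9% to 54.1% and 46.9% to 52.0%. The At5g17165 D copy took 46.9%, 47.2% and 48.0% in 2N+ABA and 49.4%, 52.0% and 49.9% in 0N+ABA, without overlap. This was not particular to it. The LEA 14 A copy took 42.8% to 43.6% in 2N+ABA and 44.4% to 45.4% in 0N+ABA. Its D copy took 52.3% to 53.1% and 50.1% to 51.9%. The LEA 46 A copy took 8.36% to 9.56% and 7.42% to 8.28%. These differences were not tested. That the copies descend from a common gene is not established by the files, and shares depend on how reads were divided among similar sequences.

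**Figure D5:**
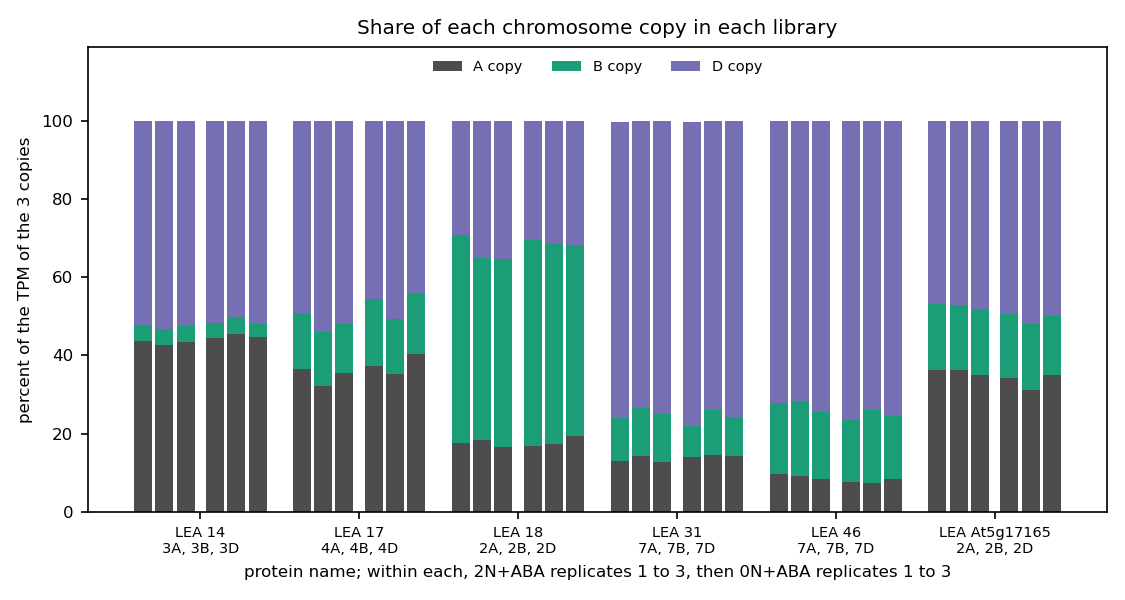
Share of the summed TPM (percent) of the A, B and D copies for the 6 protein names with 1 gene on each, in the 3 libraries of 2N+ABA (left) and the 3 of 0N+ABA (right) of each set. In each set the same copy is highest in every library, with the D copy of LEA 31 between 73.5% and 77.9% and the B copy of LEA 14 between 3.36% and 4.56%.

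Other genes tied to ABA and drying were counted beside the LEA genes in the same fit. Dehydrins, which are a separate LEA family, had 20 of 45 tested genes higher at edgeR's threshold and 0 lower (0 also at an unadjusted p under 0.05). Over all genes, 1.67% rose and 0.579% fell. Their median log2 fold change was 1.00. Their 49 genes summed to between 19861 and 21920 TPM in 2N+ABA and between 11645 and 16147 TPM in 0N+ABA. Without 0N+ABA replicate 2, 37 rose, where 5.19% of all genes rose. The 2 genes for 1-Cys peroxiredoxin, a seed antioxidant enzyme, were not called by edgeR (1 was higher at an unadjusted p under 0.05). ABA receptors and SAPK kinases, which act upstream of the ABA response, gave 2 rises and 1 fall among 40 tested by edgeR, where 1.67% of all genes rose and 0.579% fell. At an unadjusted p under 0.05, 6 of them were higher and 8 lower, and their median log2 fold change was 0.15.

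Transcription factors matched by name to the ABI5, TRAB1, HBP-1 and VP1 types gave 0 rises and 0 falls among 29 tested by edgeR. At an unadjusted p under 0.05, 1 was higher and 6 lower, and the median log2 fold change was -0.15. This is a mixed list, and the HBP-1 genes in it are not established here as ABA-response factors. Oil-body proteins, among them the oleosins of seeds, gave 0 rises and 0 falls among 35 by edgeR (4 higher, 1 lower at an unadjusted p under 0.05). Small heat shock proteins, chaperones that are also stored in seeds, gave 3 rises and 0 falls among 33 by edgeR, where 1.67% of all genes rose. At an unadjusted p under 0.05, 7 of them were higher and 2 lower. Early light-inducible proteins, chlorophyll-binding proteins that stress also induces, went the other way. By edgeR 0 rose and 6 of 21 fell (0 higher, 16 lower at an unadjusted p under 0.05), where 0.579% of all genes fell. Their median log2 fold change was -1.17. They summed to 207, 237 and 182 TPM in 2N+ABA and to 399, 668 and 381 TPM in 0N+ABA. Without 0N+ABA replicate 2, ABA receptors and SAPK kinases gave 5 rises and 5 falls, and the transcription factors 0 and 3. Oil-body proteins then gave 3 rises and 1 fall, and small heat shock proteins 5 and 4. Early light-inducible proteins gave 0 and 7, and 1-Cys peroxiredoxin 1 and 0. Of all genes, 5.19% rose and 3.19% fell in that fit. Differences between these lists were not tested.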

How the data were processed

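RNA-seq was made from roots in 6 libraries. Libraries were poly(A)-selected and primed with random hexamers, per the labels' protocols, which record neither strand nor molecular identifiers, so intervals and floors cover counting error only. Per the submitters' processing notes, HISAT and Bowtie2 were used. For the counting tool, build and annotation, names were not given in the sources used here. Estimated counts per gene and library, not normalized, were deposited by the authors, with 55.19% to 56.28% of values whole (tolerance 1e-06). The authors also deposited TPM values, used here for levels. The table's 2 columns of means for other groups stayed unused.

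Counts were rounded and tested over the whole table, 2N+ABA over 0N+ABA, with edgeR 4.0.16 in R 4.3.3 (filterByExpr, TMM, quasi-likelihood test, no covariate). The filter kept 53862 genes with 99.61% of counts. Benjamini-Hochberg adjustment ran over all of these, and "rose" and "fell" mean an adjusted p under 0.05. SEs were derived from the F statistic. Overlap of groups was judged on TMM-scaled CPM for counts of genes. The fit was tested on simulated data. Alternatives were DESeq2 1.42.0, limma-voom (limma 3.58.1), DESeq2 size factors, no scaling factor, no filter, a replicate block and leaving out each library. Members with other names of the LEA_2 domain type were to be left out as an alternative, and 0 members carried such a name.

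A reference gene table (IWGSC CS RefSeq) matched 0 gene IDs, so chromosomes come from the gene ID and no coordinates are given. The members and lists were chosen with earlier results of these data known. LEA families were assigned from the protein names as background. Related and marker lists were matched at the start of the protein name, and oleosins stand in both the oil-body and the seed list. Named genes were the members that rose (up to 20), the 6 with the highest mean TPM, the highest of each protein name with at least 3 genes, the 3 lowest log2 fold changes, and those with counts in every library of 1 group and none in the other. Other members are named where a count or set is described, chosen after their values were seen.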

Additional observations from a re-analysis of the deposited data

How the results depend on the processing

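Over all genes, 1210 were called by edgeR, 2262 by DESeq2, and from 283 to 4607 with 1 library left out. The 8 rises among LEA genes were 19 by DESeq2, 13 without the filter on low counts (67 genes tested), and from 0 to 33 with 1 library left out; 0 LEA genes fell under any alternative run (1 to 4 were lower at an unadjusted p under 0.05, except 0 without 2N+ABA replicate 3). The median log2 fold change stayed between 0.49 and 0.59 under the other tests and scalings and from 0.40 to 0.78 with 1 library left out. It was 0.78 without 0N+ABA replicate 2; the cause was not tested. No scaling factor gave 9 rises and limma-voom and DESeq2 size factors 8 each. Each of the 8 calls was lost without 0N+ABA replicate 1 or 3, with the highest adjusted p over the libraries left out from 0.0623 to 0.163.

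Pairing of the libraries by replicate number is not stated and did not show over all genes tested. Deviations from the group means of same-numbered libraries correlated at 0.076, -0.229 and -0.217 for numbers 1, 2 and 3. No library correlated best with the library of its own number in the other group. With 3 libraries per group, this cannot exclude pairing. The summed TPM of the LEA genes ranked the replicate numbers alike in both groups. For replicates 1, 2 and 3 it was 15816, 18550 and 16865 in 2N+ABA and 11012, 14344 and 11770 in 0N+ABA. With the replicate number as a block, 723 of all genes and 9 LEA genes were called, with a median of 0.59; TraesCS1A02G242400 (adjusted p = 0.128) and TraesCS3A02G188700 (0.0738) missed the threshold, and TraesCS3A02G150800 and TraesCS2B02G471600 passed it (0.0344 and 0.0341). The 14 untested genes had at most 55 counts each over the 6 libraries, and at this depth no difference was tested in them.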

Other observations

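Some LEA 6 genes had very few reads behind high TPM values. TraesCS7A02G065100 had 110, 83.2 and 80.7 TPM in 2N+ABA and 125, 55.4 and 155 TPM in 0N+ABA, from 0.637 counts per TPM. TraesCS7A02G065300 was listed at 3.43 TPM in 0N+ABA replicate 3 on 2 counts. The LEA 17 gene TraesCS4A02G129100, at 25.0 counts per TPM, averaged 65.7 ± 16.1 TPM in 2N+ABA and 52.3 ± 4.76 TPM in 0N+ABA (SD, n = 3 each). Levels of very short gene models therefore rest on fewer reads than those of longer ones.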
